A study of Mus musculus with 4 samples.

Results

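The genes of the constitutive proteasome, its subunits and the chaperones that assemble it, were measured by RNA sequencing in mouse macrophages that had received MB-3 or its solvent DMSO before lipopolysaccharide (LPS). The genes were picked by symbol, and the list was set with earlier results of these data known. Of 34745 genes in the deposited table, 48 had a symbol that starts with Psma, Psmb, Psmc, Psmd or Psmg and a number. From these, 4 pseudogenes were left out, as were the 3 immunoproteasome subunits Psmb8, Psmb9 and Psmb10. Psmb11, a subunit known from the cortical epithelium of the thymus, was left out because it had 0 counts in all 4 libraries. The remaining 40 genes held 8 genes of the alpha ring, 7 of the beta ring, 6 ATPases and 11 other subunits of the 19S particle, and 7 assembly factors. The last of them, Psmc3ip, came in by its symbol only: it encodes a recombination factor, not a proteasome protein. All 40 passed the filter on low counts.

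MB-3, a small molecule used as an inhibitor of the histone acetyltransferase GCN5, was given to the treated cells at 50 µM before 4 hours of LPS at 100 ng/ml (2 libraries). The control cells were pre-treated with DMSO and received the same LPS stimulus (2 libraries). All cells were adherent peritoneal macrophages of wildtype C57BL/6 mice, which had been injected with 2 ml of 3% thioglycolate medium 3 days before harvest. Bone marrow-derived macrophages are named in the series title, but the label of each sample says peritoneal, which is followed here. Every cell had received LPS, so all values describe LPS-stimulated macrophages, and cells without LPS were not analysed here. Nothing states that the libraries of a group came from separate mice or cultures, so the p-values measure the spread between these libraries, which may be technical.

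The proteasome degrades proteins that carry ubiquitin chains. Its 20S core is a barrel of stacked rings: the outer rings are made of alpha subunits, which gate the entrance, and the inner rings of beta subunits, of which Psmb5, Psmb6 and Psmb7 carry the proteolytic sites. The 19S particle caps the barrel, binds and removes the ubiquitin chain, and unfolds the substrate with a ring of ATPases. In cells exposed to interferon the catalytic subunits are replaced by Psmb8, Psmb9 and Psmb10, which form the immunoproteasome known for producing peptides for MHC class I. The transcription factor NRF1, encoded by Nfe2l1, is known to raise subunit genes together when proteasome activity is too low.

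The libraries held 18538799 and 17864065 counts for MB-3 cells, against 21320618 and 15598531 counts for DMSO cells, with 14323 to 14715 genes detected in each. Levels are given as CPM, the count scaled to library size after TMM scaling, and 1 count was worth 0.0466 to 0.0627 CPM. Genes of the macrophage list summed to 31100 and 30900 CPM in MB-3 cells, against 24400 and 25000 CPM in DMSO cells, and all 8 of its genes were found. Almost all of this sum was Lyz2 (28300 CPM in both MB-3 libraries, against 21600 and 22100 CPM in DMSO libraries). The other genes of the list went in different directions. Cd14, Mertk and Fcgr1 were lower in both MB-3 libraries, Cd14 with 572 and 561 CPM in MB-3 cells, against 1080 and 1150 CPM in DMSO cells. Cd68 and Csf1r were higher in both, Cd68 with 1520 and 1380 CPM in MB-3 cells, against 1190 and 1100 CPM in DMSO cells. The groups overlapped for Adgre1. The lists for B cells, T cells, neutrophils, mast cells, eosinophils, dendritic cells and fibroblasts or mesothelial cells held no gene above 10 CPM in all 4 libraries, and Ly6g, Fcer1a, Epx, Prg2 and Xcr1 were at 0 in every library. The T cell list summed to 2.23 and 2.51 CPM in MB-3 cells, against 17.5 and 17.3 CPM in DMSO cells, almost all of it Lck, while Cd3e had 0 or 0.11 CPM. The neutrophil list, almost all S100a8, summed to 12.2 and 9.99 CPM in MB-3 cells, against 21.6 and 22.2 CPM in DMSO cells. For fibroblasts or mesothelial cells the sum was 13.1 and 27.4 CPM in MB-3 cells, against 8.3 and 22.7 CPM in DMSO cells. It was higher in replicate 2 of each group. The top 10 genes by count made up 18.99% and 19.4% of the MB-3 libraries, against 13.3% and 13.1% in DMSO libraries, and mitochondrial genes took 2.28% and 2.22%, against 1.79% in both DMSO libraries. The part of these differences in the results was not tested. In bulk RNA, fewer cells of a type and less RNA per cell cannot be told apart.

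The constitutive proteasome genes moved little with MB-3, and in both directions. By edgeR's quasi-likelihood test, adjusted by Benjamini-Hochberg over 11841 genes, 5 of 40 were higher in MB-3 cells at an adjusted p under 0.05, where 16.9% of all tested genes were higher. Another 7 of 40 were lower, where 20.2% of all tested genes were lower. Together 30.0% of the 40 genes passed the test, beside 37.1% of all tested genes, and 28 did not pass. The genes that rose were the 19S subunits Psmd1, Psmd7 and Psmc5, the catalytic subunit Psmb5 and the assembly chaperone Psmd5. The genes that fell were the alpha subunits Psma1, Psma2 and Psma6, the 19S subunit Psmd6, and the assembly chaperones Psmg3, Psmg4 and Psmd10.

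The sizes of the changes were small. The median log2 fold change of the 40 genes was -0.01 and the median of its absolute value was 0.17, where all tested genes had -0.01 and 0.385. The range ran down to -0.66 for Psmg4 and up to 0.74 for Psma8. None of the 40 had an absolute log2 fold change above 1, which 17.9% of all tested genes had. Their standard errors had a median of 0.0839, below the median of 0.147 over all tested genes. Among tested genes that averaged 10 CPM or more, 45.7% were called and the median absolute log2 fold change was 0.33. The values of the MB-3 libraries did not overlap those of the DMSO libraries in 32 of the 40 genes (80.0%). No overlap was seen in 70.8% of all tested genes and in 76.5% of those that averaged 10 CPM or more.

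**Figure D1:**
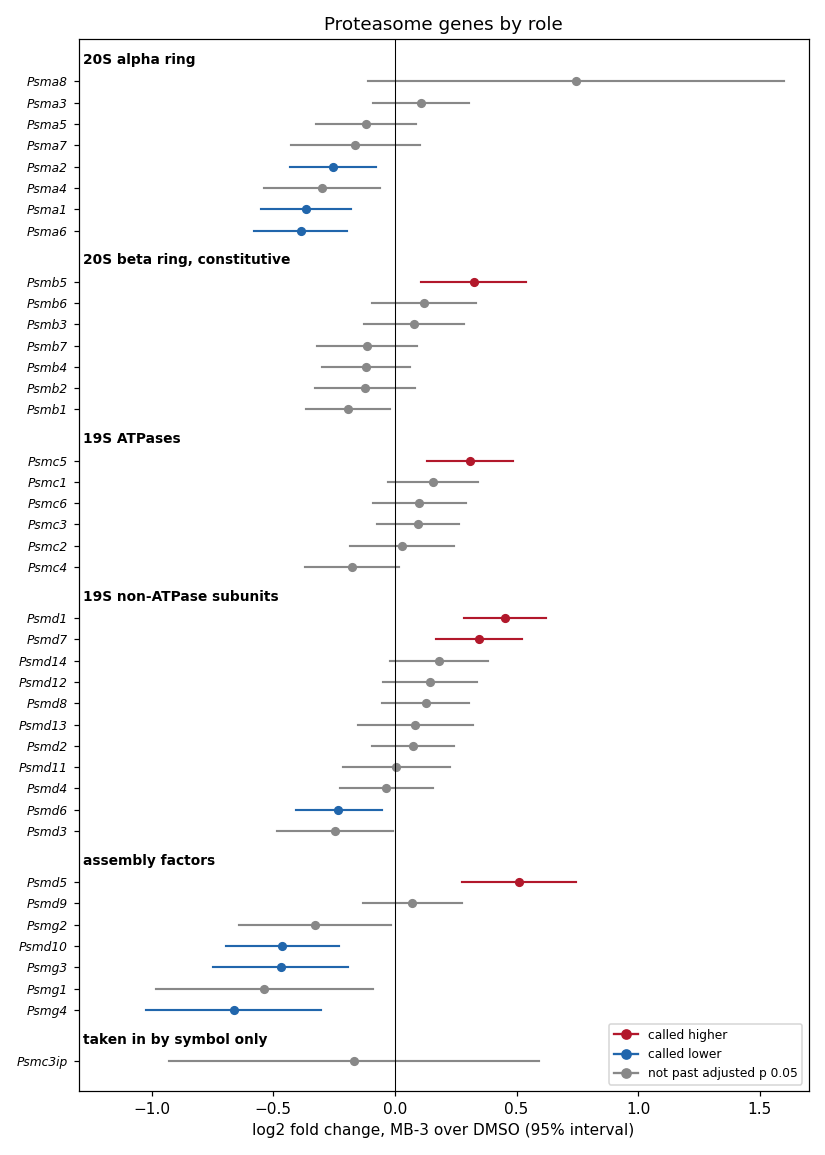
Log2 fold change of the 40 proteasome genes, MB-3 over DMSO, with the 95% interval of edgeR's quasi-likelihood fit, grouped by role and ordered by value (2 libraries a group). The 12 genes past the adjusted threshold lie between -0.66 and 0.51, and the interval of Psma8, a gene near 2 CPM, is the widest.

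The promoters of 5 of these genes show the letters at the start sites of genes that rose (Psmb5 and Psmd1) and of genes that fell (Psma1, Psma2 and Psmd10). They are RefSeq windows of 300 bases in GRCm38.p6, 250 bases before and 50 after the annotated start, 5′ to 3′ on the gene's strand. Psmb5 is at chr14:54617946-54618245, minus strand. Psmd1 is at chr1:86064369-86064668, plus strand. Psma1 is at chr7:114276067-114276366, minus strand. Psma2 is at chr13:14612992-14613291, plus strand. Psmd10 is at chrX:140956662-140956961, minus strand. Capitals mark the antioxidant response element core TGACNNNGC, which NRF1 and NRF2 are known to bind with small MAF proteins, and the CCAAT box, which the factor NF-Y is known to bind, each on either strand.
Psmb5: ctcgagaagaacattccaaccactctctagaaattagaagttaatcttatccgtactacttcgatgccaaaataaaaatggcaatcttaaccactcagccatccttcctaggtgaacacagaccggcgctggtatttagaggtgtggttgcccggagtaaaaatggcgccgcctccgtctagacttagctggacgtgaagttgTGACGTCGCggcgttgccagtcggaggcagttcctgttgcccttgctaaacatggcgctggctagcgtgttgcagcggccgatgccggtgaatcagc
Psmd1: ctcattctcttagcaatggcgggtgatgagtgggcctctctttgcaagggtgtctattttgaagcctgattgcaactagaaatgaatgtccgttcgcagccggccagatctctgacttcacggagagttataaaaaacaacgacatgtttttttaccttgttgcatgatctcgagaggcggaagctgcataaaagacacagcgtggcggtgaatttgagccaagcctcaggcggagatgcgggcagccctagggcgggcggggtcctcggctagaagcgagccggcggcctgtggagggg
Psma1: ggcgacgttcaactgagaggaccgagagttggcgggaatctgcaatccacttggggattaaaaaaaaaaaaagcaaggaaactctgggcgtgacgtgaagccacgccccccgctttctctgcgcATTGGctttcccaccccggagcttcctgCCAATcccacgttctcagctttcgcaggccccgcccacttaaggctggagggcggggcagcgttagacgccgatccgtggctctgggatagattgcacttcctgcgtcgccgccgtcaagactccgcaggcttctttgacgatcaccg
Psma2: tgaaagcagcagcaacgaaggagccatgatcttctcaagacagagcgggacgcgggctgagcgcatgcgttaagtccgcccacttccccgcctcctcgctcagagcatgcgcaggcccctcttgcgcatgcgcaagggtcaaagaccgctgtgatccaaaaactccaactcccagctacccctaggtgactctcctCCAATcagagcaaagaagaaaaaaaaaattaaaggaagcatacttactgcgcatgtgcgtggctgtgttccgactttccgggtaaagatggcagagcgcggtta
Psmd10: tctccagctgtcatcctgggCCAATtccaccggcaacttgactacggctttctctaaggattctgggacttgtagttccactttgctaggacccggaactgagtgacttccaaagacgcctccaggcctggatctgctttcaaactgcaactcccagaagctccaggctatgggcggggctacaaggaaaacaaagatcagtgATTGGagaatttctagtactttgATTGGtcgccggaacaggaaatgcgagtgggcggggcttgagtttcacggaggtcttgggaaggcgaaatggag

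A RefSeq promoter was matched for 32 of the 40 genes. TGACNNNGC was found in 5 of these 32 (15.6%), where 14.0% of 27025 genes with a promoter held it. The 5 genes were Psmb5, Psmb6, Psmc6, Psmd9 and Psmd12, and among them Psmb5 passed the test. Its match, TGACGTCGC, starts 47 bases before the start site. Of the 4 genes that rose and have a promoter in the table, 1 held this motif, and none of the 7 that fell did. CCAAT was found in 12 of 32 (37.5%), where 41.1% of the 27025 genes held it. It was found in none of the 4 that rose and in 4 of the 7 that fell, namely Psma1, Psma2, Psmd10 and Psma6, where 1 of its 2 promoters holds it. Psmg3, Psmg4 and Psmd6 also fell, and their promoters, which are not printed, hold neither motif. In Psmd10 the box occurs 3 times, starting 230, 47 and 24 bases before the start site, and in Psma1 it occurs 98 and 126 bases before it. In the 5 printed windows no marked sites overlap, while in Psmd14 a CCAAT on each strand shares letters with the other. These counts describe letters in a window and do not show binding.

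In the alpha ring, whose subunits form the outer gate of the core, 3 of 8 genes fell, none rose, and the median log2 fold change was -0.21. The calls came to 37.5% of the ring, beside 37.1% of all tested genes. Psma6 had 252.5 and 264 CPM in MB-3 cells, against 322 and 353 CPM in DMSO cells. The MB-3 libraries lay below both DMSO libraries, and edgeR's quasi-likelihood test, adjusted by Benjamini-Hochberg, called the gene lower (log2 fold change -0.39, SE 0.079, adjusted p 0.011). Psma1 had 140.5 and 149.6 CPM in MB-3 cells, against 184 and 189 CPM in DMSO cells, again without overlap (log2 fold change -0.36, SE 0.0765, adjusted p 0.0121). Psma2 had 258 and 249.5 CPM in MB-3 cells, against 293.5 and 312 CPM in DMSO cells, a smaller difference that also left the groups apart (log2 fold change -0.26, SE 0.073, adjusted p 0.0362). These calls rest on few libraries. Without MB-3 replicate 1 none of the 3 passed (adjusted p 0.0592 for Psma6, 0.0722 for Psma1 and 0.0982 for Psma2), and Psma2 also failed without any other library (adjusted p 0.0675, 0.123 and 0.144).

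The other alpha subunits did not pass the test. Psma4 had 229 and 202 CPM in MB-3 cells, against 249.5 and 281 CPM in DMSO cells, with both MB-3 libraries lower (log2 fold change -0.30, SE 0.0988, adjusted p 0.0562). It was called lower in 7 of the 12 alternative settings, among them without DMSO replicate 1, at an adjusted p of 0.0441 and a log2 fold change of -0.34. Psma5 and Psma7 had log2 fold changes of -0.12 and -0.16, and Psma3 had 0.11, with adjusted p from 0.292 to 0.351. Psma8, known as a testis form that takes the place of Psma7 in germ cells, had 2.12 and 2.18 CPM in MB-3 cells, against 1.305 and 1.25 CPM in DMSO cells. Both MB-3 libraries were above both DMSO libraries, and the gene did not pass (log2 fold change 0.74, SE 0.352, adjusted p 0.149). It was called higher by limma on log2(FPKM + 0.1) and log2(FPKM + 1), at adjusted p of 0.0298 and 0.0218.

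In the beta ring, which holds the proteolytic sites, Psmb5 was the single gene of 7 to pass (14.3%, beside 37.1% of all tested genes). The median log2 fold change of the ring was -0.12. Psmb5, the chymotrypsin-like subunit, had 213 and 215 CPM in MB-3 cells, against 159.5 and 183 CPM in DMSO cells. The MB-3 libraries lay close together and above both DMSO libraries (log2 fold change 0.32, SE 0.0891, adjusted p 0.0322). The call was lost when either MB-3 library or DMSO replicate 1 was left out (adjusted p 0.0969, 0.107 and 0.0601), when libraries were scaled by their totals alone (adjusted p 0.0566), and with limma on log2(FPKM + 0.1) or log2(FPKM + 1) (adjusted p 0.0608 in both), so it held in 6 of the 12 alternative settings. Psmb6, the caspase-like subunit, had 883 and 760.4 CPM in MB-3 cells, against 743 and 769 CPM in DMSO cells. Its groups overlapped (log2 fold change 0.12, SE 0.0885, adjusted p 0.334). Psmb7, the trypsin-like subunit, had 256 and 248 CPM in MB-3 cells, against 257 and 289.5 CPM in DMSO cells. The groups barely stood apart (log2 fold change -0.12, SE 0.0846, adjusted p 0.329), and Psmb7 shares 405 exon bases with Nek6 on the opposite strand. Use of strand in the authors' counting is not given in the sources used here, and reads of such pairs may therefore be mixed.

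The 4 beta subunits without a proteolytic site showed values on both sides of 0. Psmb1 had the lowest value of the ring, with 213.5 and 221.5 CPM in MB-3 cells, against 245 and 252 CPM in DMSO cells, and both MB-3 libraries were lower (log2 fold change -0.19, SE 0.071, adjusted p 0.0795). Psmb2 and Psmb4 had log2 fold changes of -0.12 and -0.12, and Psmb3 had 0.08, with adjusted p from 0.267 to 0.515.

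In the 19S ATPase ring, which unfolds substrates and threads them into the core, 1 of 6 genes rose, none fell, and the median log2 fold change was 0.10. This made 16.7% called, beside 37.1% of all tested genes. Psmc5 had 171 and 168 CPM in MB-3 cells, against 135 and 139 CPM in DMSO cells. The groups did not overlap, MB-3 being above DMSO (log2 fold change 0.31, SE 0.0733, adjusted p 0.0194), and the call was lost without either MB-3 library (adjusted p 0.0908 and 0.0695). Psmc4 was at the low end of the ring, with 99.3 and 103 CPM in MB-3 cells, against 117 and 112 CPM in DMSO cells, and did not pass (log2 fold change -0.18, SE 0.0796, adjusted p 0.131). Psmc1, Psmc2, Psmc3 and Psmc6 had log2 fold changes from 0.03 to 0.16 and adjusted p from 0.159 to 0.824. The sign of Psmc2 turned negative (-0.02) when libraries were scaled by their totals alone. Psmc3 shares 215 exon bases with Slc39a13 on the opposite strand, which had 155 to 246 counts where Psmc3 had 3455 to 4611.

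Among the 11 other subunits of the 19S particle, which form its scaffold, its ubiquitin receptors and its deubiquitinating site, 2 rose, 1 fell and 8 did not pass. Their median log2 fold change was 0.08, and the share called was 27.3%, beside 37.1% of all tested genes. Psmd1, a large scaffold subunit of the base, had 232 and 231 CPM in MB-3 cells, against 169.5 and 169 CPM in DMSO cells. The libraries of each group were nearly equal and the groups stood far apart relative to that spread (log2 fold change 0.45, SE 0.0696, adjusted p 0.00372). Psmd1 kept its call in each of the 12 alternative settings that were run. Psmd7, the partner of the deubiquitinase Psmd14, had 209.8 and 201 CPM in MB-3 cells, against 161 and 162 CPM in DMSO cells. Both MB-3 libraries were higher (log2 fold change 0.35, SE 0.0727, adjusted p 0.0122), and the call was lost without MB-3 replicate 1 (adjusted p 0.068). Psmd14 itself had a log2 fold change of 0.18 and did not pass (adjusted p 0.14).

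Psmd6, a subunit of the 19S lid, had 136 and 137 CPM in MB-3 cells, against 159 and 162 CPM in DMSO cells. Both MB-3 libraries were lower, and the gene passed by a small margin (log2 fold change -0.23, SE 0.0729, adjusted p 0.0492). Leaving out any single library lost the call (adjusted p 0.135 to 0.177), as did DESeq2 (adjusted p 0.113). Psmd3, another lid subunit, had 52.7 and 60.5 CPM in MB-3 cells, against 66.7 and 67.7 CPM in DMSO cells, with no overlap between the groups and an adjusted p above the threshold (log2 fold change -0.25, SE 0.0984, adjusted p 0.0976). The ubiquitin receptor Psmd4 and Psmd2, which binds proteins that deliver substrates, had log2 fold changes of -0.04 and 0.07. Psmd8, Psmd11, Psmd12 and Psmd13 had values from 0.01 to 0.14. None of these 6 passed, with adjusted p from 0.209 to 0.966, and the values of Psmd4 and Psmd11 lay so near 0 that their sign changed between settings.

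Among the assembly factors 1 of 7 rose, 3 fell and 3 did not pass (57.1% called, beside 37.1% of all tested genes). Their median log2 fold change, -0.46, was the furthest from 0 of the roles. The assembly factors work at different steps. Psmg1, Psmg2, Psmg3 and Psmg4 are chaperones that help the alpha ring form, and Psmd5, Psmd9 and Psmd10 bind ATPases while the base of the 19S particle is built. Psmg4 had 14.3 and 13.8 CPM in MB-3 cells, against 19.8 and 24.9 CPM in DMSO cells. Both MB-3 libraries were lower (log2 fold change -0.66, SE 0.148, adjusted p 0.0155), and the call was lost without either MB-3 library or DMSO replicate 2 (adjusted p 0.056, 0.0631 and 0.0581). Psmg3 had 20.8 and 18.4 CPM in MB-3 cells, against 27.4 and 26.8 CPM in DMSO cells, without overlap (log2 fold change -0.47, SE 0.115, adjusted p 0.0214), and lost its call without MB-3 replicate 2 or DMSO replicate 1 (adjusted p 0.0998 and 0.0859).

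Psmg1 had 8.32 and 10.9 CPM in MB-3 cells, against 14.9 and 12.97 CPM in DMSO cells. Its MB-3 libraries were both lower, and the gene did not pass (log2 fold change -0.54, SE 0.183, adjusted p 0.0631), although it did without MB-3 replicate 2 (log2 fold change -0.75, adjusted p 0.0419). Psmg2 had 11.6 and 12.3 CPM in MB-3 cells, against 15.01 and 14.9 CPM in DMSO cells, lower in both MB-3 libraries and also not past the threshold (log2 fold change -0.33, SE 0.13, adjusted p 0.0951). All 4 Psmg genes thus had negative values with no overlap between the groups, and 2 of them passed the test. Of all tested genes, 70.8% also showed no overlap and 37.1% passed.

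The chaperones of the 19S base went in different directions. Psmd10, also known as gankyrin, had 82.8 and 77.4 CPM in MB-3 cells, against 104 and 117 CPM in DMSO cells. Both MB-3 libraries were lower (log2 fold change -0.46, SE 0.0964, adjusted p 0.0119), and the call was lost without MB-3 replicate 2 (adjusted p 0.0662). Psmd5 had 81.5 and 83.3 CPM in MB-3 cells, against 54.1 and 61.8 CPM in DMSO cells, higher in both MB-3 libraries (log2 fold change 0.51, SE 0.0972, adjusted p 0.00847), and it kept its call in each of the 12 alternative settings. Psmd9 had a log2 fold change of 0.07 (adjusted p 0.538). Psmc3ip, the recombination factor, had 3.13 and 2.96 CPM in MB-3 cells, against 2.70 and 4.20 CPM in DMSO cells, with overlapping groups (log2 fold change -0.17, SE 0.314, adjusted p 0.709). It shares 385 exon bases with Mlx on the opposite strand, which had 806 to 1007 counts where Psmc3ip had 53 to 67.

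**Figure D2:**
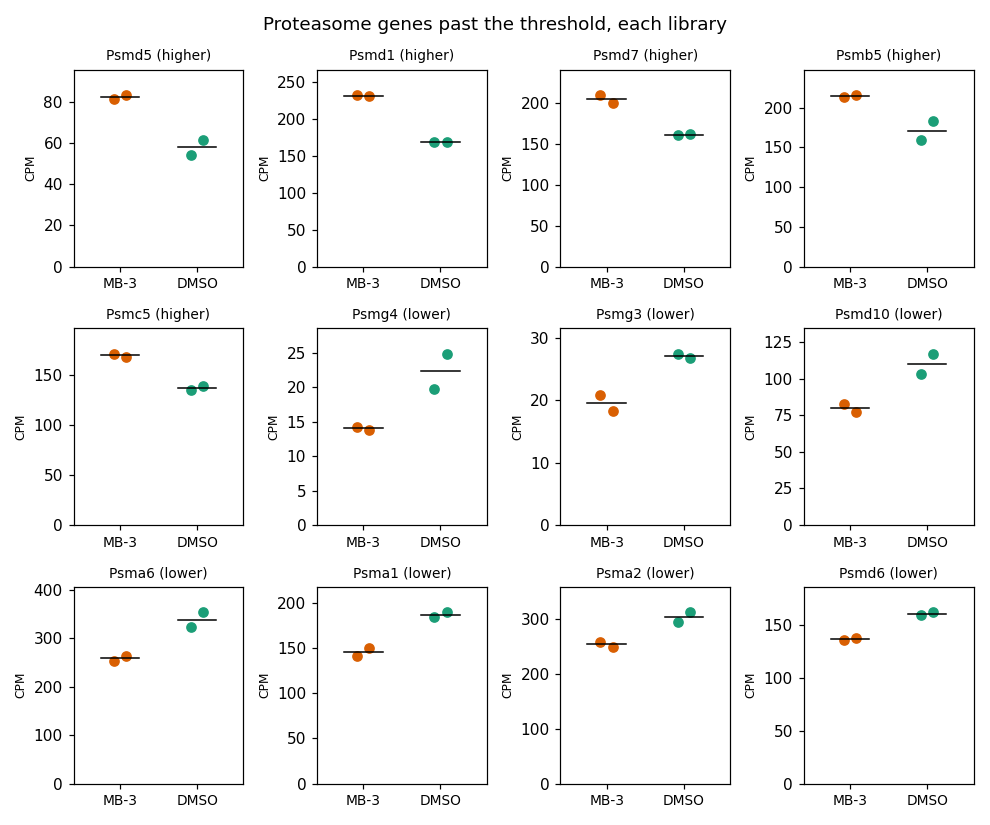
TMM-scaled CPM of the 12 proteasome genes past the adjusted threshold, 1 point a library and a bar at the group mean, MB-3 left and DMSO right, each axis starting at 0. In every panel both MB-3 points lie on the same side of both DMSO points, and the tightest pairs are those of Psmd1.

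Set side by side, the 20S core and the 19S particle had medians of opposite sign. Of the 15 core genes, 10 had negative values, with a median of -0.12; 1 rose and 3 fell. Of the 17 genes of the 19S particle, 13 had positive values, with a median of 0.09; 3 rose and 1 fell. Called genes made up 26.7% of the core genes and 23.5% of the 19S genes, beside 37.1% of all tested genes. The median of each ring and of each 19S list kept its sign with DESeq2 size factors and with library totals. Without DMSO replicate 2 the alpha ring median was -0.132, in place of -0.209, and the beta ring median -0.018, in place of -0.116. That of the ATPases was 0.142, in place of 0.097. No test of the difference between the lists was made.

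The make-up of the subunit RNA was also compared within each library. Alpha ring genes took 18.2% and 18.9% of the summed CPM of all subunits in MB-3 libraries, against 21.8% and 22.5% in DMSO libraries. Beta ring genes took 31.1% and 30.4% in MB-3 libraries, against 30.3% and 30.9% in DMSO libraries, with overlap. Per kilobase of transcript the beta share was 43.8% and 42.6% in MB-3 libraries, against 41.7% and 42.2% in DMSO libraries, and by FPKM it was 36.0% and 36.1% in MB-3 libraries, against 34.9% and 35.6% in DMSO libraries, higher in both MB-3 libraries on these scales. The ATPases took 14.6% and 14.7% in MB-3 libraries, against 14.0% and 13.7% in DMSO libraries. The other 19S subunits took 36.0% in both MB-3 libraries, against 33.9% and 32.8% in DMSO libraries. Relative to the same sum, the assembly factors came to 4.03% and 4.09% in MB-3 libraries, against 4.39% and 4.56% in DMSO libraries. Per kilobase of transcript, the alpha share was 17.7% and 18.8% in MB-3 libraries, against 21.8% and 22.5% in DMSO libraries. With 2 libraries a group, an exact permutation test of any such share cannot go below p = 0.333.

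The 40 genes made up 0.695% and 0.702% of the counts in MB-3 libraries, against 0.693% and 0.742% in DMSO libraries, so the groups overlapped. Of the summed FPKM they made up 0.735% and 0.737% in MB-3 libraries, against 0.755% and 0.797% in DMSO libraries, lower in both MB-3 libraries. Levels of different genes were compared per kilobase of the principal coding transcript in GENCODE M21, since the gene length behind the deposited FPKM was the sum of the annotated exons, within 1%, for 62.5% of the 40 genes and another length for the rest. The subunits of one complex did not have equal RNA levels. Within the beta ring, Psmb6 exceeded Psmb2 by 12.1-fold and 10.2-fold in MB-3 libraries, against 9.58-fold and 9.20-fold in DMSO libraries. Within the alpha ring without Psma8, Psma6 exceeded Psma3 by 4.73-fold and 5.14-fold in MB-3 libraries, against 6.91-fold and 6.99-fold in DMSO libraries. The ATPases were the most even, with the highest 2.06-fold and 2.12-fold above the lowest in MB-3 libraries, against 2.15-fold and 2.05-fold in DMSO libraries. Psmb6 and Psmd8 ranked among the top 3 of the 40 genes per kilobase and also by FPKM, while Psma2 ranked 20 per kilobase and 2 by FPKM, so the order of other genes depends on the length used. Apart from Psma8 and Psmc3ip, the 5 genes of lowest rank per kilobase were assembly factors, namely Psmg1, Psmg2, Psmg3, Psmd5 and Psmd9.

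The constitutive catalytic subunits were set against their immunoproteasome counterparts, which compete for the same places in the ring. Psmb8 had 191 and 176 CPM in MB-3 cells, against 539.9 and 549 CPM in DMSO cells, and fell (log2 fold change -1.57, SE 0.076, adjusted p 3.62e-05). Psmb9 had 36.4 and 22.4 CPM in MB-3 cells, against 173 and 176 CPM in DMSO cells, and fell (log2 fold change -2.57, SE 0.215, adjusted p 0.000299). Psmb10 had 126 and 135 CPM in MB-3 cells, against 419 and 474 CPM in DMSO cells, and fell (log2 fold change -1.77, SE 0.0918, adjusted p 4.62e-05). All 3 immunoproteasome genes were thus far lower in MB-3 cells by edgeR's quasi-likelihood test, adjusted by Benjamini-Hochberg, while the constitutive counterparts Psmb6 and Psmb7 did not pass and Psmb5 was higher.

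The balance of the counterparts was then taken within each library. There were 0.899 and 0.817 counts of Psmb8 for each count of Psmb5 in MB-3 libraries, against 3.38 and 3.01 in DMSO libraries, a 3.72-fold lower ratio in MB-3 cells. Per kilobase of transcript the ratio was 0.496 and 0.451 in MB-3 libraries, against 1.87 and 1.66 in DMSO libraries. On this scale Psmb8 stood below Psmb5 in MB-3 cells and above it in DMSO cells. By FPKM the ratio was 0.203 and 0.185 in MB-3 libraries, against 0.766 and 0.68 in DMSO libraries, below 1 in every library. The ratio of Psmb10 to Psmb7 per kilobase was 0.435 and 0.482 in MB-3 libraries, against 1.44 and 1.45 in DMSO libraries. It was 3.16-fold lower in MB-3 cells and again on either side of 1. By FPKM it was 1.38 and 1.53 in MB-3 libraries, against 4.58 and 4.59 in DMSO libraries, above 1 in every library. Which gene was higher thus depended on the length used for Psmb8 and Psmb5 in DMSO libraries and for Psmb10 and Psmb7 in MB-3 libraries. On both scales Psmb8 was below Psmb5 in MB-3 libraries, and Psmb10 was above Psmb7 in DMSO libraries. The fold between the groups did not depend on the length. The ratio of Psmb9 to Psmb6 per kilobase was 0.0243 and 0.0174 in MB-3 libraries, against 0.137 and 0.135 in DMSO libraries, 6.62-fold lower in MB-3 cells and below 1 in every library. For each pair the exact permutation test, two-sided, gave p = 0.333, the smallest that 2 libraries a group allow. The ratios compare RNA, and neither protein nor assembled particles were measured here.

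**Figure D3:**
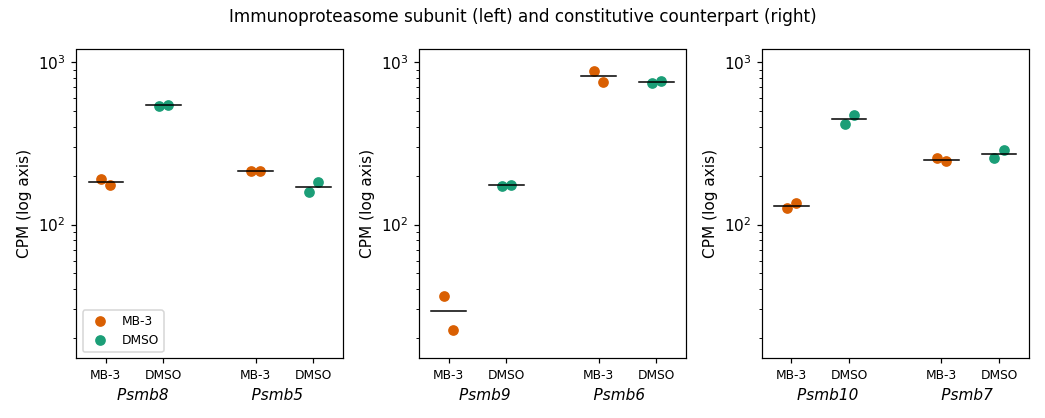
TMM-scaled CPM on a log axis of each immunoproteasome subunit (left in each panel) and its constitutive counterpart (right), 1 point a library with a bar at the group mean, MB-3 left of DMSO. Psmb8, Psmb9 and Psmb10 are lower in both MB-3 libraries, while the largest difference among Psmb5, Psmb6 and Psmb7 is the 1.25-fold higher mean of Psmb5 in MB-3 cells.

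Genes that act with the proteasome were followed in 6 lists with 39 tested genes, of which 13 rose, 7 fell and 19 did not pass. That is 51.3% called, beside 37.1% of all tested genes and 45.7% of those that averaged 10 CPM or more. The list of activators and inhibitor held 5 genes, of which 40.0% were called. Psme1 and Psme2, the subunits of the interferon-inducible 11S activator, had log2 fold changes of -0.83 and -1.16 (SE 0.0827 and 0.0974, adjusted p 0.000618 and 0.000304 by edgeR's quasi-likelihood test, adjusted by Benjamini-Hochberg), and both fell. Psme2 has a near-identical copy, Psme2b, so its count is uncertain. Psme3, the subunit of the nuclear activator, had 92.5 and 90.3 CPM in MB-3 cells, against 90.05 and 90.97 CPM in DMSO cells, and Psme4, a single-chain activator, had a log2 fold change of -0.10; neither passed (adjusted p 0.903 and 0.385). Psmf1, an inhibitor of the core, had 28.1 and 24.4 CPM in MB-3 cells, against 35.8 and 30.9 CPM in DMSO cells, lower in both MB-3 libraries but not past the threshold (log2 fold change -0.35, SE 0.126, adjusted p 0.0737).

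Of the 6 tested subunits and assembly factors with other symbols, 2 rose and none fell (33.3% called, beside 37.1% of all tested genes). AI314180, the mouse gene for the proteasome adaptor Ecm29, had 144.5 and 141 CPM in MB-3 cells, against 102 and 91.3 CPM in DMSO cells, higher in both MB-3 libraries (log2 fold change 0.56, SE 0.0876, adjusted p 0.00382). Txnl1, a thioredoxin-like protein bound to the 19S particle, rose by a small amount (log2 fold change 0.28, SE 0.0818, adjusted p 0.0412), and lost its call without any one of the 4 libraries (adjusted p 0.0542 to 0.194). The ubiquitin receptor Adrm1 and the small subunit Shfm1, also known as Sem1, had log2 fold changes of -0.02 and -0.06 (adjusted p 0.907 and 0.61). Akirin2, which brings proteasomes into the nucleus, had 0.17 (adjusted p 0.42). Pomp, the maturation chaperone of the beta ring, had 169 and 157 CPM in MB-3 cells, against 130.2 and 205 CPM in DMSO cells. The DMSO libraries lay on either side of both MB-3 libraries (log2 fold change -0.04, SE 0.199, adjusted p 0.9), and without DMSO replicate 2 Pomp was called higher (log2 fold change 0.33, adjusted p 0.0395).

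Of 10 genes that deliver or process substrates at the proteasome, 4 rose and 1 fell (50.0% called, beside 37.1% of all tested genes). Zfand2a, a proteasome-associated zinc finger protein known from arsenite stress, had 244 and 232 CPM in MB-3 cells, against 78.5 and 77 CPM in DMSO cells, and both MB-3 libraries stood about alike and far above DMSO (log2 fold change 1.61, SE 0.077, adjusted p 3.45e-05). Zfand5, which is known to stimulate degradation by the 26S proteasome, had 205 and 199 CPM in MB-3 cells, against 93.9 and 112 CPM in DMSO cells, also without overlap (log2 fold change 0.97, SE 0.102, adjusted p 0.000779). The shuttle factors Ubqln4 and Rad23b, which carry ubiquitinated proteins to the 19S particle, rose by log2 fold changes of 0.65 and 0.48 (adjusted p 0.00504 and 0.00665). Nub1, an interferon-inducible protein that delivers NEDD8 conjugates, had 102 and 101 CPM in MB-3 cells, against 192 and 178 CPM in DMSO cells, and fell (log2 fold change -0.87, SE 0.0793, adjusted p 0.000422). The deubiquitinases Usp14 and Uchl5, the ligase Ube3c and the shuttle factors Ubqln1 and Ubqln2 had log2 fold changes from 0.03 to 0.22 and did not pass (adjusted p from 0.128 to 0.78).

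The list of the NRF1 circuit held genes that make, process or partner this regulator of subunit genes, and Nfe2l2, the gene of a related factor. Of its 11 genes, 6 were higher, Nfe2l2 among them, and 1 was lower. That made 63.6% called, beside 37.1% of all tested genes and 45.7% of those that averaged 10 CPM or more. Nfe2l1, which encodes NRF1, had 76.8 and 69.1 CPM in MB-3 cells, against 94.01 and 80.5 CPM in DMSO cells. It was lower in both MB-3 libraries and did not pass (log2 fold change -0.26, SE 0.11, adjusted p 0.113), though it was called lower without DMSO replicate 2 (log2 fold change -0.36, adjusted p 0.0465). Nfe2l2, which encodes the related factor NRF2, had 311 and 269 CPM in MB-3 cells, against 151.5 and 163.5 CPM in DMSO cells, and rose (log2 fold change 0.88, SE 0.0969, adjusted p 0.000955). Ddi2, the protease that cuts NRF1 into its active form, had 31.3 and 34.2 CPM in MB-3 cells, against 18.1 and 17.2 CPM in DMSO cells, and rose (log2 fold change 0.89, SE 0.109, adjusted p 0.00149).

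Vcp, the ATPase that pulls NRF1 out of the endoplasmic reticulum membrane, had 284 and 279.7 CPM in MB-3 cells, against 175 and 172 CPM in DMSO cells, and its cofactor Nploc4 had 90.9 and 95 CPM in MB-3 cells, against 63.6 and 68.6 CPM in DMSO cells. Both rose, by log2 fold changes of 0.70 and 0.49 (adjusted p 0.000604 and 0.00624), while Ufd1l, the other cofactor, had 0.03 (adjusted p 0.79). The small MAF proteins, with which NRF1 and NRF2 bind DNA, went in different directions. Mafg had 197.5 and 209.9 CPM in MB-3 cells, against 66.2 and 57.3 CPM in DMSO cells, the highest rise of the 39 genes (log2 fold change 1.72, SE 0.1, adjusted p 6.82e-05). Maff rose as well (log2 fold change 0.61, SE 0.106, adjusted p 0.00593), and Mafk fell (log2 fold change -0.47, SE 0.103, adjusted p 0.0147), a call lost without either MB-3 library or DMSO replicate 1 (adjusted p 0.0574, 0.0644 and 0.0591). Ngly1, which removes sugars from NRF1, and the ligase Syvn1 had log2 fold changes of -0.08 and 0.26 and did not pass (adjusted p 0.662 and 0.223).

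Among 4 genes of ubiquitin supply, 1 rose and none fell, a smaller share called than the 37.1% of all tested genes. Ubb, a polyubiquitin gene, had 922 and 974 CPM in MB-3 cells, against 670.4 and 688 CPM in DMSO cells. The MB-3 libraries lay above both DMSO libraries (log2 fold change 0.48, SE 0.0673, adjusted p 0.00256). Rps27a, which encodes ubiquitin fused to a ribosomal protein, had a log2 fold change of 0.33 and did not pass (adjusted p 0.0601), but was called in 6 of the 12 alternative settings. The activating enzymes Uba1 and Uba6 had -0.15 and -0.03 (adjusted p 0.183 and 0.858), and neither passed.

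**Figure D4:**
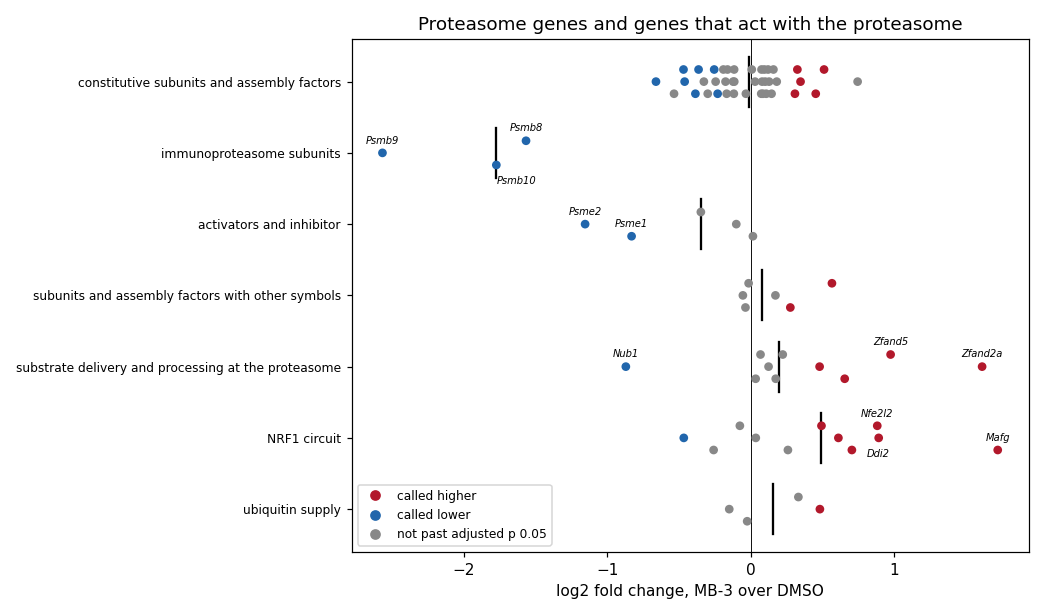
Log2 fold change, MB-3 over DMSO, of the 40 constitutive genes (top row) and of the 39 tested genes of 6 lists that act with the proteasome, 1 point a gene and a bar at the median of each row. The 40 genes lie between -0.66 and 0.74, while the 39 others spread from -2.57 to 1.72, and genes beyond 0.8 in either direction are named.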

How the data were processed

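RNA from 2 MB-3 and 2 DMSO samples was enriched by oligo(dT) and sequenced with strand-specific libraries, per the labels' protocols. The deposited counts are unscaled whole numbers per gene, per the file headers. The deposited FPKM values rescale those counts by library total and by a gene length that was within 0.1% of the gene's median in 100% of pairs. HISAT2, StringTie 1.3.0, edgeR, mm10 and GRCm38.p4 are named in the submitters' processing notes; how multi-mapping reads were counted is not given in the sources used here. Columns were matched to samples by group and replicate number.

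The implied length was the sum of the gene's annotated exons, within 1%, for 71.9% of 16623 genes. It was a median of 2.22 times the principal transcript among the 40 genes. Levels of single genes were therefore compared per kilobase of the principal transcript. FPKM sums, shares, ranks and ratios are given only beside another scale.

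The test on counts was that of edgeR 4.0.16, run in R 4.3.3 (filterByExpr, TMM, glmQLFit and glmQLFTest, group only), with Benjamini-Hochberg adjustment over 11841 genes and a threshold of 0.05. TMM factors were 0.966 and 1 for MB-3 and 1.01 and 1.02 for DMSO; the biological coefficient of variation was 0.126. Replicates were not copies: chi-square per degree of freedom was 11.7 for MB-3 and 13.8 for DMSO. The procedure was run on simulated counts in which 200 genes were changed. It called 10% of genes changed by an absolute log2 fold of 0.5, 86% at 1 and 100% at 2. In the data 4391 genes were called, many more than the 200 changed here, which made the adjusted threshold stricter in the simulation. These shares therefore do not measure how many changes of each size were found in the data. Of the 11629 genes run, 21 unchanged genes were called. With at most 200 changed genes to call, the unchanged ones were a larger part of all calls than the 0.05 that the adjustment aims at. Alternatives were other scalings and filters, DESeq2 1.42.0, limma 3.58.1 on log2(FPKM + 0.1) or log2(FPKM + 1), a replicate block, leaving out each library and, chosen after seeing the data, another transcript length.

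The 40 genes and the lists were chosen with earlier results of these data known. Any of the 40 or of the lists' genes could be named; values per library are given for the genes called, the extremes of all and of each role, the catalytic subunits and listed genes the text turns on. Of the listed genes, 3 are not reported here and were left out of the lists' counts.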

Additional observations from a re-analysis of the deposited data

How the results depend on the processing

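With 2 libraries a group, small changes can be missed, and several calls of proteasome genes depended on single libraries. Psmd1 and Psmd5 were called in each of the 12 settings and all 12 called genes kept their direction. The count of proteasome genes higher was 2 to 5, and lower 2 to 5, when each library was left out, beside 5 and 7 with all libraries; over all tested genes it was 1283 to 1802 higher and 1726 to 1936 lower. The median log2 fold change of the 40 genes, -0.014, was -0.057 with library totals, -0.059 and -0.055 with limma on log2(FPKM + 0.1) and log2(FPKM + 1), 0.01 with DESeq2 size factors, and -0.044 to 0.054 with each library left out. That of the 39 partner genes, 0.067, was 0.024, 0.023 and 0.022 in the same order, and 0.061 to 0.159 with each library left out. The log2 ratio difference was -1.981 to -1.81 for Psmb8 to Psmb5, -2.97 to -2.485 for Psmb9 to Psmb6 and -1.734 to -1.586 for Psmb10 to Psmb7 with each library left out. The members' share of the library differed by -0.04 percentage points in FPKM and -0.019 in counts. Values near 0 changed sign: Psmc2 (0.029) was -0.016 with library totals, -0.013 and -0.012 with limma and -0.013 to 0.133 with each library left out; Psmd11 (0.006) was -0.036, -0.04 and -0.037 in the same order, and -0.085 to 0.094 with each library left out. Psmd4 ranged over -0.065 to 0.022, Psmc3ip over -0.416 to 0.179 and Pomp over -0.282 to 0.332 with each library left out, and Pomp was 0.014 without MB-3 replicate 2. The cause was not tested. Replicates of equal number shared deviations (correlation across genes 0.217), but 2 pairs do not show pairing; with a replicate block 5046 genes were called, all 12 proteasome calls held and Psma4 and Psmg1 (adjusted p 0.0356 and 0.0496) were added, while among the partner genes Nfe2l1 and Psmf1 were called lower (adjusted p 0.0376 and 0.0259), making 9 lower in place of 7.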

Other observations

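The symbol Itgam, a macrophage marker, has 2 identifiers in the deposited table, and its counts divide between them differently in each library. One identifier had 3409 and 2375 counts in MB-3 libraries, against 1258 and 556 counts in DMSO libraries. The other had 2 and 1346 counts in MB-3 libraries, against 1675 and 1478 counts in DMSO libraries. None of the 40 proteasome genes has a second identifier.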
